A study of Mus musculus with 15 samples.

Results

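Neurod1, Nkx2-9, Irx3 and Foxi3 encode developmental transcription factors of the nervous system and of the placodes, the thickenings of the head ectoderm that form sense organs. They are 4 of the 24819 genes in each deposited expression table and were chosen by their large rise in FPKM over the control in these same libraries, so that rise is described here without a test. All 4 passed the filter on low values that 12249 genes passed (a level of 1 FPKM reached by 2 or more of the 10 libraries tested). Irx3 stayed under 1 FPKM in every control library and passed through the knockdowns alone. Nkx2-9 (1.63 and 0.837 FPKM in the control libraries tested) and Foxi3 (1.28 and 0.658 FPKM) also needed a knockdown library to pass. FPKM, a fragment count divided by transcript length and by library size, is a level per length and can be compared between genes.

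The cells were E14, a single mouse embryonic stem cell line, kept on gelatin in medium with serum and leukemia inhibitory factor. They were transfected through DharmaFECT with a non-targeting siRNA (siNT) or with one that targets Rpl11, Rpl14, Rpl18 or Rpl23 (siRpl11, siRpl14, siRpl18 and siRpl23), genes for proteins of the large ribosomal subunit. Each of the 5 groups had 3 libraries of polyadenylated RNA made with a stranded kit. The sample titles give 48 h and the treatment protocol gives a harvest after 3 days. Nothing in the labels says that replicates were separate cultures, so the spread behind the p-values, that between these libraries, may be a technical one.

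Neurod1 is a basic helix-loop-helix (bHLH) activator that drives neuronal and pancreatic endocrine differentiation, and it binds DNA at E-boxes as a dimer with E proteins such as those from Tcf3, Tcf4 and Tcf12. Nkx2-9 is a homeodomain factor of the ventral neural tube, where its gene responds to Hedgehog signalling. Irx3 is a homeodomain factor of the Iroquois family that patterns the neural plate and lies in a gene cluster with Irx5 and Irx6. Foxi3 is a forkhead factor of the preplacodal ectoderm, from which the placodes form, that of the ear among them. Embryonic stem cells express such lineage regulators weakly, and many of them carry Polycomb marks at CpG-rich promoters.

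The sequence just before the annotated start of each gene is shown because the 4 genes rose together, so that a reader can see what kind of promoter each has. The letters are from RefSeq on build GRCm38.p6, which differs from the mm9 build named for the expression values, and only bases ahead of every annotated start are printed. Capitals mark a GC box (GGGCGG, or CCGCCC where it lies on the other strand) or an E-box (CANNTG, which reads alike on both strands). The Neurod1 stretch is chr2:79456752-79456886, minus strand. The Nkx2-9 stretch is chr12:56613285-56613534, minus strand, and the Foxi3 stretch is chr6:70956356-70956530, plus strand.
Neurod1: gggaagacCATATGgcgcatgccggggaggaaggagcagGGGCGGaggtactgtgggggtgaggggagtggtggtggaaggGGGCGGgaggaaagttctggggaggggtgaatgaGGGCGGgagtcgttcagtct
Nkx2-9: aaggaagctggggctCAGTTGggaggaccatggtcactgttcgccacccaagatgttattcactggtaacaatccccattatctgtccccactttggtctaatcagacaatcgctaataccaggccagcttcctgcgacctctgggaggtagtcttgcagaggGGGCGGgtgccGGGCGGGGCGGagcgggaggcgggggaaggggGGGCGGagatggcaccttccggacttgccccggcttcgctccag
Foxi3: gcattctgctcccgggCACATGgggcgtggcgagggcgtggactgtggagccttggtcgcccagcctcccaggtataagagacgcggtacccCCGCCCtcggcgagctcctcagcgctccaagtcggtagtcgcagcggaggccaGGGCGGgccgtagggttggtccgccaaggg

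The printed stretches hold 3 GC boxes for Neurod1, 4 for Nkx2-9 and 2 for Foxi3, and each holds 1 E-box. A pair of the GC boxes of Nkx2-9 shares a base. Over the full 250 bases before the start, a GC box was found in 33.0% and an E-box in 66.2% of 32526 mouse promoter windows, both strands searched, so neither is rare. The Irx3 window, which lies inside annotated transcript models and is not printed, held 0 of either. The CCAAT box (CCAAT, in 33.8% of windows) and the homeodomain core (TAATTA, in 4.84%) had 0 matches in all 4 windows. The 4 windows were above the median of 52.4% G or C, with 67.6% for Neurod1, 61.6% for Nkx2-9, 56.0% for Irx3 and 70.4% for Foxi3. Of all windows, 87.0%, 75.5%, 61.0% and 91.1% had less G or C than these, in the same order. The 4 windows held 22, 13, 13 and 24 CpG dinucleotides against a median of 6. Fewer were held by 85.1%, 68.2%, 68.2% and 87.9% of all windows, so Irx3 and Nkx2-9 stood out less than Neurod1 and Foxi3. These matches describe the letters in the windows and are not evidence of binding.

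All 4 knockdowns lowered their target. The first table, which holds replicates 1 and 2 of each group, put the targeted RNA at 24.0% of siNT for Rpl11, 51.6% for Rpl14, 32.6% for Rpl18 and 36.3% for Rpl23. The second table, normalized separately and holding the third library of each group, put it at 19.9% to 38.5%. Total read numbers are unknown. Judged by the step that a single read makes in low values, libraries had 0.697 to 1.394 times the depth of siNT replicate 1 in the first table and 1.0 to 1.305 times that of siNT in the second. Pluripotency markers were abundant throughout, with a summed level over 14 genes of 7790 to 8800 FPKM in siNT and 5650 to 7500 FPKM in the knockdowns. Dppa5a alone, at 4050, 4350 and 3450 FPKM in siNT, made up a large part of that sum. Of these 14 markers, 9 were called lower and 4 higher in siRpl11, and 11 lower and 1 higher in each of the other knockdowns. Over all genes tested, 29.5% to 43.6% were called lower and 27.3% to 34.9% higher. The part of these markers in the rise of the 4 genes was not tested.

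Neurod1 RNA was low in control cells and high after every knockdown, least so after loss of Rpl11. Its level in siNT was 2.05 and 2.39 FPKM in replicates 1 and 2 and 0.983 FPKM in the third library. It stood at 14.0, 14.1 and 11.4 FPKM in siRpl11 in the same order. The siRpl11 libraries were thus all above every siNT library and below every library of the other knockdowns. Neurod1 reached 30.5, 31.1 and 37.1 FPKM in siRpl14. In siRpl18 it was at 41.2, 46.3 and 37.9 FPKM, and in siRpl23 at 40.8, 36.3 and 41.0 FPKM. The siRpl18 and siRpl23 libraries overlapped once the third libraries were counted. Ratios of mean FPKM to siNT in the first table were 6.34 for siRpl11, 13.9 for siRpl14, 19.7 for siRpl18 and 17.4 for siRpl23. On the log2(FPKM + 1) scale, used for all differences below and understating the change of low genes, the differences were 2.23, 3.31, 3.80 and 3.62 (SE 0.08 each, n = 2 per group).

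Nkx2-9 RNA rose as steeply, with its peak after Rpl18 knockdown. It measured 1.63, 0.837 and 1.91 FPKM in the siNT libraries. It was at 22.8, 20 and 27.5 FPKM in siRpl11 and at 20.4, 19.7 and 27.2 FPKM in siRpl14, which overlap. In siRpl18 it was at 37.3, 40.0 and 52.3 FPKM. The siRpl23 libraries held 23.1, 24.1 and 38.2 FPKM. Within each table the siRpl18 library or libraries were the highest, although the third siRpl23 library exceeded one of the siRpl18 libraries of the other table. The ratios to siNT were 17.4, 16.3, 31.4 and 19.2 in the order siRpl11, siRpl14, siRpl18 and siRpl23. The log2 differences were 3.35, 3.26, 4.17 and 3.49 (SE 0.13 each), which placed Nkx2-9 4th, 11th, 5th and 9th from the top of the 12249 genes. Neurod1 ranked 13th, 10th, 7th and 6th, Irx3 9th, 163rd, 149th and 169th, and Foxi3 8th, 98th, 124th and 75th.

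Irx3 RNA was the scarcest of the 4 in every group, and siRpl11, the lowest knockdown for Neurod1, was here the highest. The siNT libraries held 0.261, 0.42 and 0.225 FPKM. Those of siRpl11 held 7.87, 7.1 and 6.35 FPKM, the highest levels of any group. Levels in siRpl14 were 3.19, 3.21 and 3.93 FPKM, in siRpl18 they were 3.92, 3.53 and 3.36 FPKM, and in siRpl23 they were 3.34, 3.46 and 3.44 FPKM. The siRpl14, siRpl18 and siRpl23 libraries, taken over both tables, overlapped one another and lay between siNT and siRpl11 with no overlap on either side. Mean FPKM was 22 times that of siNT in siRpl11 and 9.39, 10.9 and 9.99 times in siRpl14, siRpl18 and siRpl23. The log2 differences were 2.66, 1.65, 1.82 and 1.72 (SE 0.09 each).

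Foxi3, like Irx3, was highest in siRpl11, at a higher level. It was at 1.28, 0.658 and 2.81 FPKM in siNT, where the third library was the highest of the 3. In siRpl11 it was at 14.6, 13.5 and 15.9 FPKM, above every other library. The siRpl14 libraries held 6.79, 6.62 and 10.4 FPKM and the siRpl18 libraries 6.66, 6.34 and 7.4 FPKM. Levels in siRpl23 were 9.07, 8.26 and 12.6 FPKM, above siRpl14 and siRpl18 within each table. Ratios to siNT were 14.5, 6.91, 6.70 and 8.93 in the first table and 5.66, 3.69, 2.63 and 4.47 in the second, where the control was higher. The log2 differences were 2.95, 1.99, 1.95 and 2.31 (SE 0.12 each) in the first table.

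For each of the 4 genes, 12 of 12 knockdown libraries lay above the highest of the 3 siNT libraries. The closest approach was that of Foxi3, with 2.81 FPKM in its highest siNT library and 6.34 FPKM in its lowest knockdown library. Since the genes were picked for these rises and all 4 comparisons share the siNT libraries, this agreement is a description. The share of all genes with such a separation is not given here. Per knockdown, 27.3% to 34.9% of all genes tested were called higher than siNT. RNA came from whole cultures, so more cells with the transcript and more transcript per cell cannot be told apart.

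**Figure D1:**
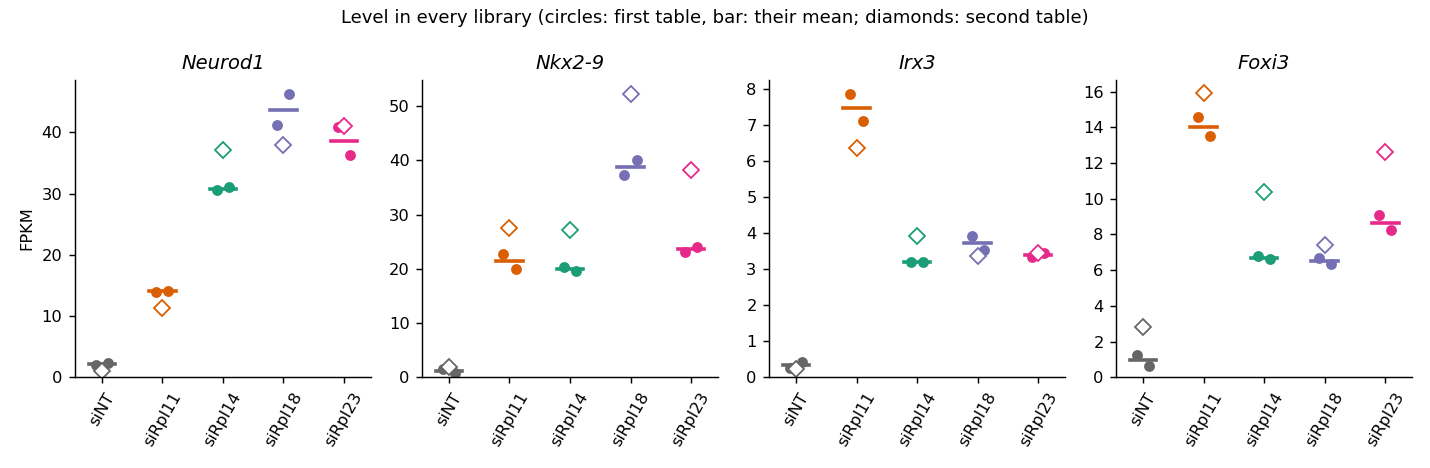
Level of each gene in FPKM (vertical axis, linear, starting at 0 and scaled per gene) in the 5 groups. Filled circles are replicates 1 and 2 of the first table with their mean as a bar, and open diamonds are the third libraries from the separately normalized second table. Neurod1 is lowest among the knockdowns in siRpl11, Irx3 and Foxi3 are highest there, and Nkx2-9 is highest in siRpl18.

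Comparing the knockdowns with one another leaves siNT out of each difference, though not out of the shared estimate of spread. It asks whether the 4 genes responded alike to the loss of different ribosomal proteins. In these libraries the order of the knockdowns differed between the genes. Of 24 differences (4 genes in 6 pairs of knockdowns), 13 were called by limma at a Benjamini-Hochberg adjusted p under 0.05 over all genes, and these 13 had the same sign in the third libraries. Of the 11 others, 7 did. A gene picked for a large rise tends to be high in the knockdown where it was noticed, so the choice of genes can favour these differences. The third libraries were part of that choice, so their signs are not an independent check.

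Neurod1 was higher in siRpl14 than in siRpl11 by 1.08 ± 0.08 (SE; adjusted p = 1.84e-06), in siRpl18 by 1.57 ± 0.08 (adjusted p = 1.55e-07) and in siRpl23 by 1.39 ± 0.08 (adjusted p = 3.3e-07). The third libraries gave 1.62, 1.65 and 1.76 for the same pairs. Such calls were common: 59.2% of all genes tested differed between siRpl14 and siRpl11, 53.4% between siRpl18 and siRpl11 and 55.4% between siRpl23 and siRpl11. What separates the members there is the sign and size of the difference. In mean FPKM, Neurod1 stood 2.19, 3.11 and 2.74 times higher in siRpl14, siRpl18 and siRpl23 than in siRpl11.

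Irx3 went the other way by a like amount. It was lower than in siRpl11 by a log2 difference of -1.01 ± 0.09 in siRpl14 (adjusted p = 7.15e-06), -0.84 ± 0.09 in siRpl18 (adjusted p = 2.54e-05) and -0.94 ± 0.09 in siRpl23 (adjusted p = 1.15e-05). Foxi3 fell in step, with -0.96 ± 0.12 in siRpl14 (adjusted p = 0.000107), -1.0 ± 0.12 in siRpl18 (adjusted p = 9.23e-05) and -0.64 ± 0.12 in siRpl23 (adjusted p = 0.00166). The third libraries gave -0.58, -0.75 and -0.73 for Irx3 and -0.57, -1.01 and -0.32 for Foxi3. Mean Irx3 FPKM in the other knockdowns was 0.428 to 0.498 times that in siRpl11, and mean Foxi3 FPKM was 0.463 to 0.618 times. By rise over siNT, Irx3 ranked 9th of all genes tested in siRpl11 and 149th to 169th in the other knockdowns. Foxi3 ranked 8th in siRpl11 and 75th to 124th in the others. Choosing genes by a large rise thus favours siRpl11 as their highest group, and the adjusted p-values do not allow for that choice.

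Nkx2-9 took neither side. It did not pass the test between siRpl14 and siRpl11 (-0.09 ± 0.13, adjusted p = 0.59) or between siRpl23 and siRpl11 (0.14 ± 0.13, adjusted p = 0.401). It was higher in siRpl18 than in siRpl11 by 0.83 ± 0.13 (adjusted p = 0.000529) and than in siRpl14 by 0.91 ± 0.13 (adjusted p = 0.00319), with 0.90 and 0.92 in the third libraries. Between siRpl18 and siRpl14, 14.3% of all genes were called. The difference of siRpl23 from siRpl18 was -0.69 ± 0.13 (adjusted p = 0.0251, against 3.51% of all genes called), and -0.44 in the third libraries. That call ended when either library of siRpl18 or siRpl23 was left out (adjusted p from 0.0879 to 0.124), with a pseudocount of 0.1 (0.104) and with no filter (0.0856).

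Among siRpl14, siRpl18 and siRpl23 the other 3 genes differed little. Neurod1 was called higher in siRpl18 than in siRpl14 (0.49 ± 0.08, adjusted p = 0.00424), but the third libraries differed by 0.03, and with all 15 libraries in the fit the difference was 0.34 with an adjusted p of 0.14. Irx3 differed by 0.17 ± 0.09, 0.07 ± 0.09 and -0.10 ± 0.09 in the pairs of these 3 knockdowns, none called, and the third libraries had the opposite sign in each. Foxi3 in siRpl23 exceeded siRpl18 by 0.37 ± 0.12 (adjusted p = 0.138), with 0.69 in the third libraries. Leaving out siNT replicate 1 or 2 from the shared fit brought its adjusted p to 0.031 or 0.0305. Between siRpl23 and siRpl14, 0.514% of all genes and 0 of the 4 were called by limma, while 2 of the 4, Neurod1 and Foxi3, had an unadjusted p under 0.05.

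**Figure D2:**
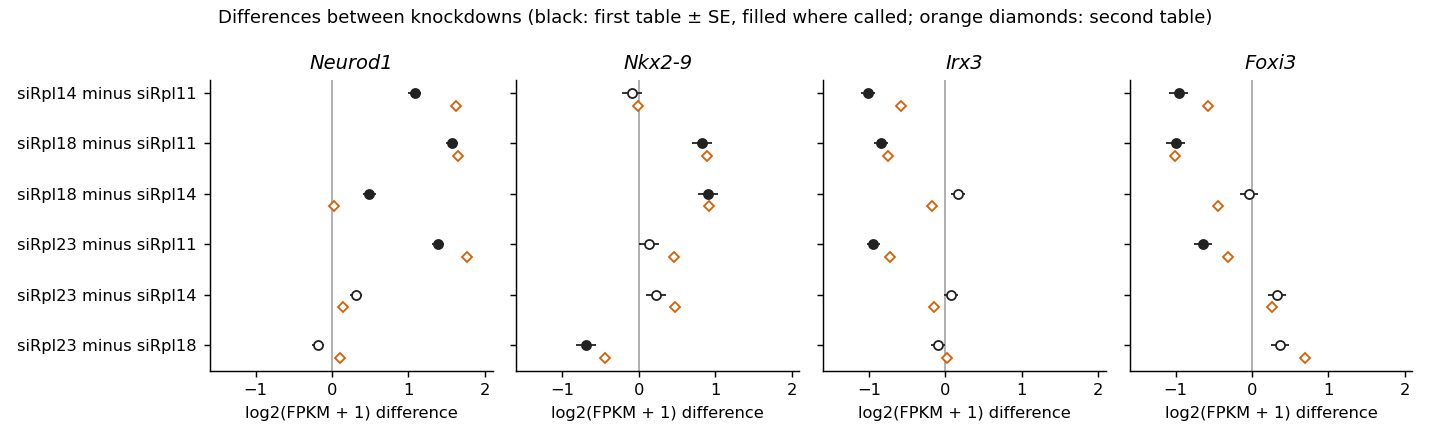
Differences between pairs of knockdowns on the log2(FPKM + 1) scale (horizontal axis), 1 panel per gene. Black circles with SE bars are the fit to the first table, filled where called, and orange diamonds are the third libraries. Differences from siRpl11 lie to the right of 0 for Neurod1 (1.08 to 1.57) and to the left for Irx3 (-0.84 to -1.01) and Foxi3 (-0.64 to -1.0).

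A ratio of 2 genes within a library does not depend on how that library was scaled. The ratio of Neurod1 to Foxi3 FPKM was 0.963, 1.05 and 0.714 in the siRpl11 libraries. It was 4.49, 4.70 and 3.57 in siRpl14, 6.18, 7.31 and 5.13 in siRpl18, and 4.50, 4.39 and 3.26 in siRpl23. Thus the RNA of both genes was about equally abundant per length after Rpl11 knockdown, while Neurod1 exceeded Foxi3 in every library of the other knockdowns. The siNT ratios, 1.60, 3.63 and 0.349, rest on low levels and spread across this whole contrast. For Nkx2-9 over Irx3 the ratio was 2.90, 2.82 and 4.33 in siRpl11 and 6.13 to 15.6 in the other knockdowns.

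**Figure D3:**
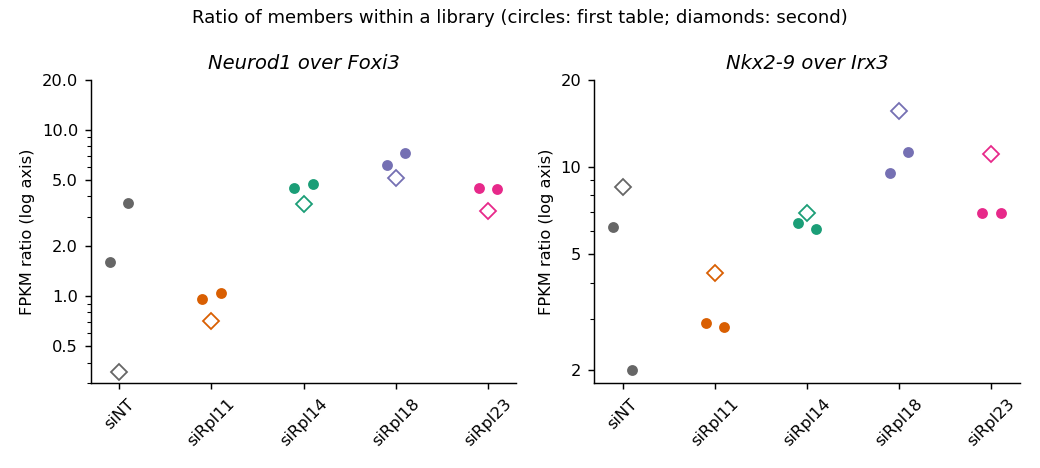
Ratio of FPKM values within each library on log axes: Neurod1 over Foxi3 on the left and Nkx2-9 over Irx3 on the right, by group. Circles are libraries of the first table and diamonds those of the second. The siRpl11 ratios for Neurod1 over Foxi3 lie between 0.714 and 1.05, and those of the other knockdowns between 3.26 and 7.31.

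Over the 8 knockdown libraries of the first table, log2 levels of Irx3 and Foxi3 had a Pearson r of 0.91, and Neurod1 had an r of -0.90 with Irx3 and -0.88 with Foxi3. Neurod1 and Nkx2-9 had an r of 0.57. These values describe 4 groups of 2 libraries each and so repeat the group differences. With the siNT libraries added (10 libraries), all 6 pairs were positive, from 0.69 to 0.97.

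The relatives and partners of Neurod1 did not rise as a family. Neurod2, Neurod4 and Neurog2, which share its bHLH class, stayed at or under 0.117 FPKM in every library, Neurog1 stayed at or under 0.427 FPKM, and Neurod6 was listed at 0 in all 15. Neurog3, a bHLH factor that acts ahead of Neurod1 in the endocrine pancreas, was at 0.842, 0.546 and 0.882 FPKM in siNT and at 3.39, 4.04 and 1.5 FPKM in siRpl11. Its rise there was 1.48 ± 0.17 (adjusted p = 3.3e-05), with 0.41 in the third library, and it was not called in siRpl14 (-0.06), siRpl18 (-0.11) or siRpl23 (-0.21). Neurog3 was thus raised where Neurod1 was lowest among the knockdowns.

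Of 30 proneural and neuronal bHLH and zinc finger factors listed, 6 passed the filter. Here and in the lists below, a gene scarce in siNT could be let in by the knockdowns where it was high. Of the 6, 3 were called higher and 1 lower in siRpl11, where 27.3% of all genes tested were higher and 43.6% lower. The counts were 4 and 0 in siRpl14 (33.3% and 29.5% of all genes), 3 and 0 in siRpl18 (32.8% and 34.7%), and 4 and 0 in siRpl23 (34.9% and 30.8%). Quantile normalization changed the counts to 3 and 0 in both siRpl11 and siRpl14 and to 2 and 1 in siRpl23. Median-ratio scaling changed them to 4 and 1 in both siRpl11 and siRpl23. List medians of 0.31 to 0.39 stood beside -0.11 to 0.02 for all genes. The gene in this list with the steepest rise was Insm1, a zinc finger factor of neuroendocrine cells. Its levels were 0.0782, 0.109 and 0.0406 FPKM in siNT and 3.58, 3.29 and 5.13 FPKM in siRpl18, and it rose by 1.67, 1.38, 2.02 and 1.61 in the 4 knockdowns (SE 0.11, adjusted p at most 2.84e-06). Ebf2, a factor of late neuronal differentiation that was listed at 0 in 2 of 3 siNT libraries, rose in siRpl14, siRpl18 and siRpl23 by 1.60, 1.37 and 1.59. In siRpl11 Ebf2 differed by 0.27 (adjusted p = 0.0594), and it was called there with a pseudocount of 0.1 (1.42, adjusted p = 0.00101), median-ratio scaling (0.0386), only the groups compared (0.0437) or either siRpl14 library left out (0.0401 and 0.0406). Ebf1, its relative, was called lower in siRpl11 (-0.40, adjusted p = 0.00665), a call that quantile normalization ended (adjusted p = 0.317).

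The dimer partners of Neurod1 and its antagonists moved less. Tcf12, one of the E proteins, rose by 0.75, 0.73 and 0.68 in siRpl14, siRpl18 and siRpl23 (adjusted p at most 1.68e-05) and was lower in siRpl11 (-0.38, adjusted p = 0.000712; 0.124 after quantile normalization). Rest, the repressor of neuronal genes outside neurons, split the knockdowns the same way with the opposite sign. It was at 58.2, 57.0 and 65.5 FPKM in siNT, at 73.0, 71.6 and 85.6 FPKM in siRpl11, and at 40.4 to 53.4 FPKM in the other knockdowns. The siRpl11 libraries were all above siNT and those of the other knockdowns all below it. Rest rose by 0.32 ± 0.04 in siRpl11 (adjusted p = 4.96e-05) and fell in siRpl14, siRpl18 and siRpl23 (-0.36, -0.48 and -0.49, adjusted p at most 3.07e-05). Against siRpl11 directly, the difference was -0.69, -0.80 and -0.82 (adjusted p at most 5.48e-07).

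The Id genes, whose products bind E proteins without contacting DNA, gave values that depended on the table. Id3 was called higher by 1.24, 1.23 and 1.15 in siRpl14, siRpl18 and siRpl23, but by 0.30, 0.18 and 0.30 in the third libraries, where siNT stood at 73.5 FPKM against 25.6 and 29.7 FPKM in the first table. Id2 was called higher by 0.58 to 0.82 in the same knockdowns, and the third libraries gave -0.10, 0.03 and -0.10. Rcor1, a corepressor that binds REST, fell in all 4 knockdowns (-0.36 to -0.74). Id4 was called lower in siRpl11 (-0.64, adjusted p = 0.0017). Over the 11 genes of this list, all of which passed the filter, 2 to 4 were called higher and 3 to 5 lower per knockdown, with medians of -0.05 to -0.15. That is 18.2% to 36.4% and 27.3% to 45.5% of the list, beside 27.3% to 34.9% and 29.5% to 43.6% of all genes. In siRpl11 the 2 higher and 5 lower became 3 and 4 after quantile normalization and 4 and 3 after median-ratio scaling.

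Notch signalling holds back proneural genes, and 2 of its ligands rose while other members fell. Dll1, a ligand expressed by cells entering neurogenesis, was at 1.44, 1.43 and 1.34 FPKM in siNT and between 4.07 and 7.72 FPKM in every knockdown library. It rose by 1.71, 1.61, 1.76 and 1.73 (SE 0.08, adjusted p at most 1.02e-07). The ligand Jag1 rose by 1.40, 1.13, 1.12 and 1.00 (adjusted p at most 3.3e-07), and the receptor Notch3 by 0.31, 1.28, 1.10 and 1.18 (adjusted p at most 0.00083). The receptor Notch4 fell in all 4 (-1.36, -0.94, -1.02 and -1.13, adjusted p at most 2.91e-06). Hes1, a repressor induced by Notch, fell in siRpl11 (-0.81, adjusted p = 1.96e-06). Hes1 was also called lower in siRpl14, siRpl18 and siRpl23 (-0.25, -0.19 and -0.22). These 3 calls ended without siNT replicate 1 (adjusted p 0.0548, 0.164 and 0.0831), and the third libraries gave 0.02, 0.14 and -0.10. Of 30 listed genes 23 passed the filter, and 7, 11, 10 and 10 were called higher against 10, 5, 6 and 5 lower in the order siRpl11, siRpl14, siRpl18 and siRpl23. The balance in siRpl11 turned with the scaling, to 8 higher and 6 lower after quantile normalization and 10 and 6 after median-ratio scaling. As shares of the list, 30.4% to 47.8% were higher and 21.7% to 43.5% lower, beside 27.3% to 34.9% and 29.5% to 43.6% of all genes.

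Around Nkx2-9, 1 paralog rose and the Hedgehog ligand Shh was near 0. Nkx2-2, a homeodomain factor of the ventral neural tube and the pancreatic islet, was at 0.0539, 0.0543 and 0 FPKM in siNT. It reached 0.822, 0.753 and 0.952 FPKM in siRpl11 and 1.99, 2.38 and 4.54 FPKM in siRpl18, its highest group as for Nkx2-9, although siRpl23 did not pass the test against siRpl18 (-0.10, adjusted p = 0.678). Its rises were 0.76, 1.16, 1.59 and 1.49 (SE 0.11, adjusted p at most 0.000169). Against siRpl11 the difference in siRpl18 was 0.83 ± 0.11 (adjusted p = 0.000175). Nkx2-1, Nkx2-3, Nkx2-4, Nkx2-5 and Nkx2-6 did not pass the filter, and of these Nkx2-3 went from 0 to 0.0681 FPKM in siNT to 0.448, 0.457 and 0.872 FPKM in siRpl18. Shh stayed at or under 0.048 FPKM in all libraries.

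Of 33 ventral neural and Hedgehog genes listed, 32 had a row in the table and 18 were tested. Called higher were 5, 7, 8 and 7 and lower 7, 5, 6 and 6, with medians of -0.06 to 0.08, so the list as a whole stayed near the median of all genes. The calls made up 27.8% to 44.4% and 27.8% to 38.9% of those tested, beside 27.3% to 34.9% and 29.5% to 43.6% of all genes. Dhh, the Hedgehog ligand known from Sertoli and Schwann cells, rose in siRpl14, siRpl18 and siRpl23 by 0.80, 1.44 and 1.16 (adjusted p at most 8.79e-05), and Lmx1a, a roof plate and inner ear homeodomain factor, by 1.22, 1.58 and 1.30. In siRpl11 these genes differed by 0.09 and -0.03, not called. Gli2, a transcriptional effector of the pathway, fell in all 4 (-0.58 to -0.92, adjusted p at most 0.000171). Ptch1, the Hedgehog receptor and a target of the pathway, singled out after its values were seen, rose by 1.35 in siRpl11 and 0.65 in siRpl18. It differed by 0.05 and 0.16 in siRpl14 and siRpl23, not called.

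Irx5, the next member of the Iroquois cluster, also rose and was also highest in siRpl11. It was at 0.132, 0.0926 and 0.0838 FPKM in siNT and at 3.36, 2.84 and 2.80 FPKM in siRpl11. In siRpl14, siRpl18 and siRpl23 its libraries lay between 1.30 and 1.85 FPKM, below all of siRpl11 and above all of siNT. Irx5 rose by 1.88, 1.23, 1.23 and 1.17 (SE 0.12, adjusted p at most 1.66e-05). Its differences from siRpl11 were -0.65, -0.64 and -0.71 (adjusted p 0.00112, 0.00139 and 0.000752), with -0.69, -0.72 and -0.63 in the third libraries. Irx5 was not among the genes picked for their rise, although it was looked up with that of Irx3 known. Its siNT libraries were all under 1 FPKM, so Irx5 passed the filter through the knockdowns alone.

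The rest of the family behaved otherwise. Irx2, from the other Iroquois cluster, rose in siRpl14, siRpl18 and siRpl23 by 0.85, 0.82 and 0.80 (adjusted p at most 0.00128) and differed by 0.10 in siRpl11, not called. Irx1, Irx4 and Irx6 stayed under 0.4 FPKM in every library. Mkx, a related homeobox gene of tendon, rose by 0.84, 0.50 and 0.70 in the same 3 knockdowns (adjusted p at most 0.00449). In siRpl11 Mkx differed by 0.21 (adjusted p = 0.137), and it was called there after quantile normalization (0.50, adjusted p = 0.00329) or median-ratio scaling (0.32, adjusted p = 0.0303).

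The genes beside Irx3 on the chromosome that are not Iroquois genes moved less than Irx3 and Irx5. In order they are Rpgrip1l, Fto, Irx3, Crnde and Irx5. Fto, an RNA demethylase gene whose introns hold enhancers known to act on Irx3, was at 30.6, 31.9 and 25.1 FPKM in siNT and between 27.1 and 33.7 FPKM in the knockdowns. It differed from siNT by -0.05 to 0.08, not called. The value in siRpl11, -0.05, turned to 0.13 (adjusted p = 0.0175) after median-ratio scaling. Rpgrip1l, a ciliary gene, was called higher by 0.35, 0.21 and 0.34 in siRpl14, siRpl18 and siRpl23. In siRpl11 it differed by 0.14 (adjusted p = 0.133), and it was called higher there after quantile normalization (0.45, adjusted p = 0.000816), median-ratio scaling (0.26, adjusted p = 0.0141) or with all 15 libraries (0.22, adjusted p = 0.0193). The siRpl18 call ended when either siNT library was left out (adjusted p 0.079 and 0.124). Crnde, a noncoding RNA gene next to Irx5, was called higher in siRpl11 (0.45 ± 0.17, adjusted p = 0.0352), with 0.47 in the third library. That call ended without siNT replicate 1 or 2 (adjusted p 0.132 and 0.0749). Against siRpl11, Crnde differed by -0.39, -0.48 and -0.33 in siRpl14, siRpl18 and siRpl23. Only the siRpl18 difference was called (adjusted p = 0.0346).

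**Figure D4:**
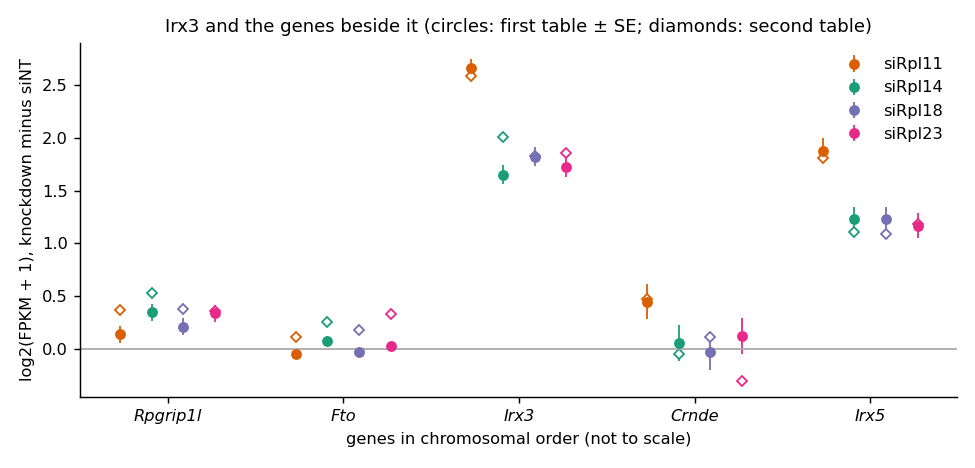
Knockdown minus siNT on the log2(FPKM + 1) scale (vertical axis) for Irx3 and the 2 nearest genes of the table on each side, in chromosomal order and not to scale. Filled circles with SE bars are the first table and open diamonds the third libraries. Irx3 (1.65 to 2.66) and Irx5 (1.17 to 1.88) stand above the other genes, and both are highest in siRpl11.

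Neighbours of the other members gave no such pair. The 2 genes on either side of Neurod1 (Itga4, Cerkl, Ppp1r1c and Pde1a) and of Nkx2-9 (Nkx2-1, C87198, Pax9 and Slc25a21) were too low to pass the filter. Beside Foxi3, the stress kinase gene Eif2ak3 was called higher by 0.25, 0.28 and 0.27 in siRpl14, siRpl18 and siRpl23 and differed by -0.02 in siRpl11. Without siNT replicate 2 the adjusted p was 0.0668 in siRpl14 and 0.0526 in siRpl23. Thnsl2 was called lower in siRpl11 (-0.41, adjusted p = 0.0233), which was lost on leaving out siNT replicate 1 (adjusted p = 0.185). Tex37 and Rpl34-ps1 did not pass the filter.

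Foxi3 rose without its paralogs. Foxi1 was listed at 0 in all 15 libraries, and Foxi2 stayed at or under 0.0409 FPKM. Of 44 genes listed as Foxi family, preplacodal ectoderm factors and surface keratins, 18 passed the filter. Called higher were 8, 11, 11 and 11 and lower 5, 3, 3 and 4 in siRpl11, siRpl14, siRpl18 and siRpl23, with medians of 0.19, 0.41, 0.50 and 0.58. These were 44.4% to 61.1% and 16.7% to 27.8% of those tested, beside 27.3% to 34.9% and 29.5% to 43.6% of all genes. Quantile normalization changed the counts to 9 higher and 2 lower in siRpl11, 8 and 3 in siRpl14, and 10 and 3 in siRpl18.

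Six4, a homeodomain factor of the list, fell in the 4 knockdowns (-0.41 to -0.56, adjusted p at most 0.000988; 0.0507 in siRpl11 after quantile normalization). Gata3, a zinc finger factor of ectoderm and trophectoderm, was at 0.0381, 0.0272 and 0.311 FPKM in siNT. It rose by 1.00, 2.07, 2.49 and 2.34 (SE 0.10, adjusted p at most 8.1e-06), least in siRpl11 as for Neurod1. Krt5, a basal keratin, rose by 0.56, 1.23, 2.00 and 1.79 (adjusted p at most 0.000202). Krt8, a simple-epithelium keratin, was called lower in siRpl11 (-0.77, adjusted p = 0.000121) and higher in siRpl14, siRpl18 and siRpl23 by 2.11, 0.98 and 1.85. Foxd3, a forkhead factor of stem cells and neural crest, fell in siRpl14, siRpl18 and siRpl23 (-0.50, -0.59 and -0.54) and was called higher in siRpl11 (0.25, adjusted p = 0.00335), a call lost with all 15 libraries (adjusted p = 0.14).

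Neural plate and progenitor genes rose in part. Of 43 listed, 21 passed the filter, and 14, 11, 11 and 11 were called higher against 4, 4, 2 and 5 lower. These were 52.4% to 66.7% and 9.52% to 23.8% of those tested, beside 27.3% to 34.9% and 29.5% to 43.6% of all genes. Quantile normalization changed the siRpl14 counts to 10 and 6. The median was 0.62 in siRpl11 and 0.12 to 0.35 in the other knockdowns. The third libraries gave medians of 0.34 in siRpl11 and -0.02 to 0.09 elsewhere. Otx2, a homeodomain factor of the anterior neural plate and of stem cells leaving naive pluripotency, was at 9.03, 8.34 and 13.7 FPKM in siNT and at 78.0, 78.6 and 74.1 FPKM in siRpl11. It rose by 3.03, 1.58, 2.34 and 1.92 (SE 0.05, adjusted p at most 3.86e-09), with its peak in siRpl11 like Irx3 and Foxi3. Nes, an intermediate filament gene of progenitors, rose by 1.67, 0.96 and 1.22 in siRpl14, siRpl18 and siRpl23. In siRpl11 it differed by 0.13 (adjusted p = 0.103), and was called after quantile normalization (0.39, adjusted p = 0.000426) or median-ratio scaling (0.26, adjusted p = 0.00512). Msi1, an RNA-binding protein of neural stem cells, fell in all 4 (-0.65 to -0.89), as did the adhesion gene Ncam1 (-0.23 to -0.72, with calls in siRpl14 and siRpl18 that ended without siNT replicate 1, adjusted p 0.15 and 0.0674). Gbx2, a factor of the midbrain-hindbrain boundary, fell in siRpl11 (-0.65) and siRpl14 (-0.34) and was not called in siRpl18 (0.02) or siRpl23 (-0.17, adjusted p = 0.0708; 0.0141 after quantile normalization).

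Signals that divide ectoderm into neural, placodal and epidermal fates were also lower in part. Bmp4, which favours epidermis over neural plate, was at 30.0, 29.8 and 51.7 FPKM in siNT and at 8.61, 9.15 and 15.5 FPKM in siRpl11. It fell in all 4 knockdowns (-1.65, -0.79, -1.0 and -0.79, SE 0.07, adjusted p at most 4.18e-06). Fgf4, an autocrine signal of stem cells, fell (-0.69, -1.17, -1.15 and -1.2), and so did Spry4, a feedback inhibitor induced by FGF (-1.31, -1.04, -0.84 and -1.01). Fst, a secreted antagonist of activin and BMP, rose by 0.51, 1.51, 1.67 and 1.49, and the receptor Fgfr2 by 1.22, 1.22, 0.82 and 1.12. Bmp7 fell in siRpl11 (-0.62) and rose by 0.94, 1.17 and 1.05 in the others. Of 30 listed genes 22 passed the filter, and 6, 9, 9 and 9 were called higher against 12, 9, 10 and 9 lower. These were 27.3% to 40.9% and 40.9% to 54.5% of those tested, beside 27.3% to 34.9% and 29.5% to 43.6% of all genes. In siRpl11 the counts became 9 and 9 after quantile normalization and 9 and 11 after median-ratio scaling.

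Polycomb genes, whose complexes hold lineage genes silent in stem cells, moved in both directions. Of 33 listed, 31 passed the filter, with 10, 8, 12 and 10 called higher and 11, 10, 12 and 9 lower and medians of -0.03 to 0.06. In siRpl11 median-ratio scaling made this 17 higher and 8 lower, and quantile normalization 11 and 10. The fit reported called 25.8% to 38.7% higher and 29.0% to 38.7% lower. Over all genes these shares were 27.3% to 34.9% and 29.5% to 43.6%. Bmi1, a subunit of Polycomb repressive complex, was at 0.627, 0.789 and 1.56 FPKM in siNT and rose by 1.85, 1.53, 1.76 and 1.86 (SE 0.11, adjusted p at most 1.76e-06). Pcgf3 rose by 0.84, 0.90 and 1.07 and Phc2 by 0.87, 0.82 and 0.81 in siRpl14, siRpl18 and siRpl23. In siRpl11 Phc2 fell (-0.46, adjusted p = 0.000101) and Pcgf3 differed by 0.01, not called (0.18 and called after median-ratio scaling, adjusted p = 0.00486). Epop, an accessory subunit, was the most abundant of those named, at 227, 223 and 286 FPKM in siNT, and fell in all 4 knockdowns (-1.13, -0.54, -0.51 and -0.63, adjusted p at most 0.000153). Phf19 (-0.45 to -0.80) and Cbx2 (-0.53 to -0.79) fell in all 4 as well.

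Over all 9 lists, 260 genes were listed and 153 passed the filter. Called higher by at least 2-fold on the log2(FPKM + 1) scale were 17 (11.1%) in siRpl11, 24 (15.7%) in siRpl14, 22 (14.4%) in siRpl18 and 30 (19.6%) in siRpl23. The shares over all genes tested were 1.97%, 4.51%, 5.2% and 5.06%. Called lower by as much were 4, 2, 3 and 3, beside 5.31%, 1.59%, 2.51% and 2.05% of all genes. With a pseudocount of 0.1 the siRpl11 counts became 29 higher and 13 lower, beside 3.54% and 11.3% of all genes. The lists were drawn up with results of these libraries known and the filter lets in genes through the groups where they are high, so these shares describe the lists and no more. In siRpl11 the median of all genes was -0.11, and it moved to 0.01 after quantile normalization and 0.04 after median-ratio scaling. Of the listed genes called there at any size, 50.5% were higher, against 62.3% and 63.6% after those scalings. Of all genes called there, 38.5% were higher, against 50.9% and 54.7% after the same scalings, so the background moved as well.

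**Figure D5:**
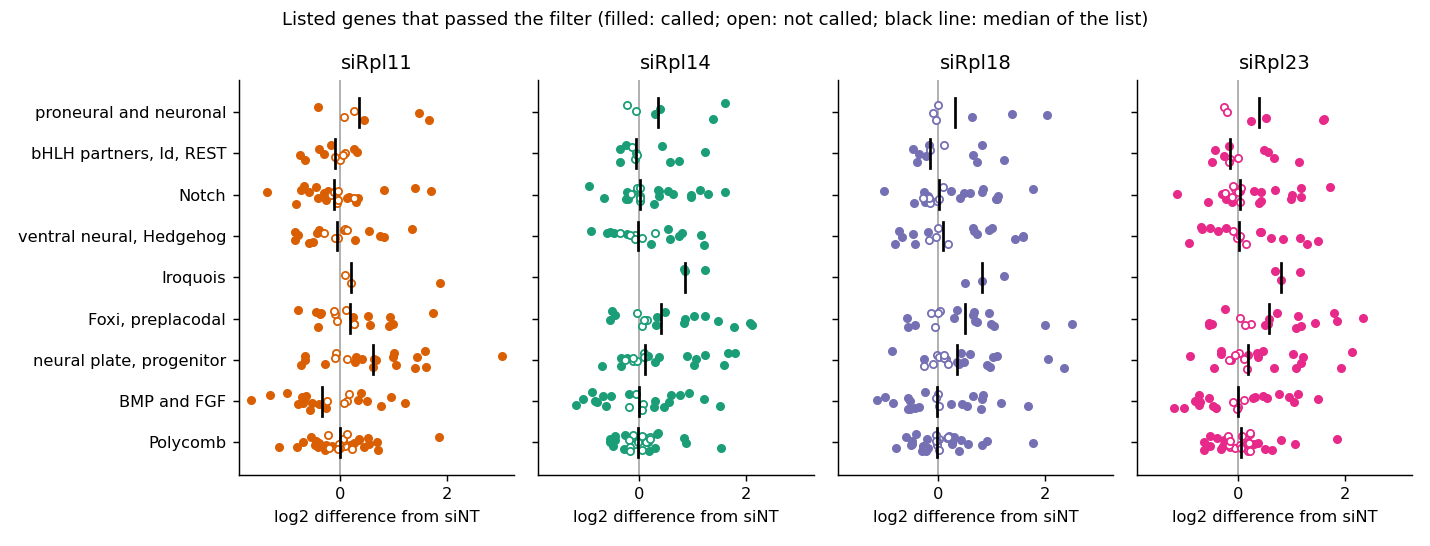
Difference from siNT on the log2(FPKM + 1) scale (horizontal axis) for each listed gene that passed the filter, 1 row per list and 1 panel per knockdown. Filled points were called, open points were not, and the black line is the median of the list; points are spread vertically for visibility. Medians of the neural plate list reach 0.62 in siRpl11, and those of the Foxi and preplacodal list reach 0.58 in siRpl23.

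The genes most like each member were those with the highest Pearson r of log2 levels over the 10 libraries of the first table, among 1800 genes whose group means spanned at least 1. For Neurod1 these were Mdm2 and Ddit4l (r = 0.998 each), Prrg4, Tbx4 and Psrc1 (0.997 each). Mdm2, the ubiquitin ligase that degrades p53, was at 42.0, 41.2 and 36.3 FPKM in siNT, at 147, 139 and 134 FPKM in siRpl11, and at 274 to 375 FPKM in the other knockdowns, so it had the order of Neurod1 at a higher level. For Nkx2-9 they were Stox2, Krtcap2, Chchd5, Siah1b and Tmem131 (0.989 to 0.992). For Irx3 they were Efnb2, an ephrin ligand gene, Smarca1, Unc5b, a netrin receptor gene, Mycn and Zfp105 (0.991 to 0.993). For Foxi3 they were Zbed3, Ubxn8, Dppa2, Zfp27 and Ifrd1 (0.983 to 0.992). The 5 libraries of the second table gave r of 0.977 to 0.999 for the genes like Neurod1 and 0.83 to 0.993 for the others. The points share groups and the siNT libraries, and the largest of 1800 values is high by choice.

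Markers of the cell types in which these factors act did not rise with them as a set. Of 23 neuron markers, 10 stayed under 1 FPKM in every library, among them Dcx (at most 0.0087 FPKM) and Snap25 (at most 0.143 FPKM). The summed level of all 23 was 373 to 454 FPKM in siNT, 201 to 236 FPKM in siRpl11 and 241 to 286 FPKM in the other knockdowns. Of the 13 that passed the filter, 2 or 3 were called higher and 7 to 10 lower per knockdown, beside 27.3% to 34.9% and 29.5% to 43.6% of all genes. Tubb3, a neuronal tubulin, fell in all 4 knockdowns (-1.22, -0.55, -0.77 and -0.57). So did Elavl3 (-1.51, -1.21, -1.31 and -1.26) and Stmn2 (-1.11, -0.88, -0.88 and -0.90), with adjusted p at most 4.29e-06. Syp, a synaptic vesicle gene, fell in siRpl11 (-0.56) and rose by 0.61, 0.50 and 0.84 in the others. The part of these levels in the rise of Neurod1, Nkx2-9, Irx3 and Foxi3 was not tested.

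Of 15 islet and neuroendocrine markers, 14 stayed under 1 FPKM in every library and 4 of them at 0, the exception being Nkx2-2, and the sum was at most 0.927 FPKM in siNT and 5.38 FPKM in the knockdowns. Of 12 placode and inner ear markers, 7 stayed under 1 FPKM, with 1 at 0, and the sum was 163 to 173 FPKM in siNT, 136 to 138 FPKM in siRpl11 and 159 to 176 FPKM in the others. That sum consists largely of Cdh1 and Epcam, adhesion genes that stem cells also express. Of 8 glial markers, 5 stayed under 1 FPKM, and the sum went from 7.91 to 10.8 FPKM in siNT to 11 to 11.6 FPKM in siRpl11 and 22.1 to 26.4 FPKM in the others. Aldh1l1 accounted for most of that rise, at 2.49, 2.08 and 1.90 FPKM in siNT and 17.4 to 22.3 FPKM in siRpl14, siRpl18 and siRpl23. Of the 3 glial markers that passed the filter, 1 was called higher in every knockdown and 1 was called lower in siRpl14, siRpl18 and siRpl23. Over all genes tested, 27.3% to 34.9% were called higher and 29.5% to 43.6% lower.

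Epidermal and surface ectoderm markers did move. Their sum over 12 genes, with 2 under 1 FPKM and none at 0 in all libraries, was 50 to 58.7 FPKM in siNT, 59.2 to 69.5 FPKM in siRpl11 and 267 to 350 FPKM in the other knockdowns. Of the 10 that passed the filter, 4 were called higher and 6 lower in siRpl11, 8 higher and 1 lower in siRpl14, and 9 higher and 1 lower in siRpl18 and siRpl23. Beside these and the counts below, 27.3% to 34.9% of all genes were called higher and 29.5% to 43.6% lower. In siRpl11 the sum was thus above siNT although more of the markers were called lower than higher. Like Neurod1 and unlike Irx3 and Foxi3, this sum was lowest among the knockdowns in siRpl11. Krt5 and Krt8 are also in the preplacodal list above. Trophectoderm markers summed to 31.4 to 33.6 FPKM in siNT, 34.8 to 36.4 FPKM in siRpl11 and 48.2 to 69.4 FPKM in the others over 11 genes, 4 under 1 FPKM and 1 at 0. Of 7 tested, 3, 5, 4 and 5 were called higher and 2, 1, 1 and 1 lower in siRpl11, siRpl14, siRpl18 and siRpl23. Primitive endoderm markers summed to 7.67 to 18.3 FPKM in all groups over 11 genes, 4 under 1 FPKM and none at 0. Of 7 tested, 4, 4, 5 and 5 were called higher and 2, 2, 1 and 1 lower in the same order. Fibroblast markers fell from 19.7 to 22.9 FPKM in siNT to 5.73 to 15.0 FPKM over 12 genes, 9 under 1 FPKM and 2 at 0. Of 3 tested, 3, 2, 2 and 2 were called lower and 0 higher in that order. The part of these cell types in the levels of the 4 genes was not tested.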

How the data were processed

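RNA sequencing of 15 libraries (5 groups of 3) gave gene-level FPKM. The authors used STAR, Cuffnorm and build mm9, per the submitters' processing notes, and the sources used here state no versions, settings or annotation. The deposited FPKM values came in separately normalized tables of 24819 genes, the first with 10 libraries and the second with 5. In the first, 2 columns matched no sample and were not used. FPKM carries no read totals, so absolute depth is unknown.

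Values were analysed as log2(FPKM + 1) for the 12249 genes that reached 1 FPKM in 2 or more libraries of the first table. In R 4.3.3, limma 3.58.1 (lmFit, contrasts, eBayes with trend) with 1 term per group left 5 residual degrees of freedom. Genes were called at a Benjamini-Hochberg adjusted p under 0.05 over all genes tested. The third library of each group entered no test except in the alternative with all 15. Scaling, pseudocount, filter, replicate block and left-out libraries were varied.

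The members, gene lists and markers were chosen with earlier results of these data known. Named by rule were the members, up to 3 genes per list and direction with the largest called difference from siNT, relatives of the members, 2 neighbours on each side, 5 most alike genes per member and the targeted genes. Ptch1 and single markers were named besides, and some listed genes are not reported here. Promoter letters and the order of neighbouring genes come from RefSeq on GRCm38.p6.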

Additional observations from a re-analysis of the deposited data

How the results depend on the processing

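Of the 24 differences between knockdowns over the members, 13 were called in the fit reported and 12 to 14 under each alternative, with 13 under quantile normalization, median-ratio scaling and the replicate block. Replicate numbers were not taken to pair the libraries: correlations of deviations ran from -0.086 to 0.195, with 5 of 10 over 0.1, although replicate 2 had fewer genes at 1 FPKM than replicate 1 in all 5 groups. With the replicate block, Psen2 was also called lower in siRpl18 (-0.28, adjusted p = 0.0146) and siRpl23 (-0.24, adjusted p = 0.0325), Ebf1 in siRpl23 (-0.26, adjusted p = 0.0431) and Phox2a in siRpl14 (-0.35, adjusted p = 0.042), and Ptch1 higher in siRpl23 (0.16, adjusted p = 0.00571). With a pseudocount of 0.1, 3.54% and 11.3% of all genes tested were called higher and lower at 2-fold or more in siRpl11. In siRpl18 these shares were 7.77% and 5.87%. Called lower were 3.96% in siRpl14 and 4.99% in siRpl23. Of the 153 listed genes tested, 29 were so called higher and 13 lower in siRpl11, and 34 higher and 5 lower in siRpl18. Listed genes called lower were 6 in siRpl14 and 6 in siRpl23. Median-ratio scaling gave 1 lower in siRpl18, and the fit of all 15 libraries gave 4 lower in siRpl14. Leaving out 1 library at a time gave 1 to 3 lower in siRpl18 (1 without siNT replicate 1) and 3 to 5 lower in siRpl23 (5 without siNT replicate 2). Of 4250 values of other genes under the alternatives, 4144 kept a call with its direction or stayed uncalled, 68 lost a call and 37 gained one. The signs of values uncalled in both fits were not compared. The 1 value with a call in either fit that turned sign was Fto in siRpl11 after median-ratio scaling (0.13). The causes were not tested. With 2 libraries per group and unknown depth, levels under about 1 FPKM, as for Irx3 in siNT, limit the precision of a ratio.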

Other observations

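Rpl34-ps1, a pseudogene beside Foxi3, was listed between 3.31e-05 and 8.52e-05 FPKM in the libraries of the first table and between 616 and 838 FPKM in those of the second. The tables were normalized separately, and this gene entered no comparison.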
